A study of Mus musculus with 3 samples.

Results

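The numbered Zfp genes are mouse genes named Zfp followed by a number, with at most a short suffix, and most of them encode zinc finger proteins that bind DNA. They were chosen by their symbol alone: every protein-coding row of the authors' annotated tables whose symbol had this form was taken. RefSeq lists 397 such genes among 21887 coding genes on chromosomes 1 to 19, X and Y. Regions bound in Runx1 ChIP-seq (chromatin immunoprecipitation and sequencing) were assigned to 180 of the 397 in at least 1 replicate. The other 217 had none under this rule, among them Zfp469, whose regions the authors list under a non-coding RNA of that name. Replicate 1 had 5 regions at 5 of these genes, replicate 2 had 25 regions at 22 genes and replicate 3 had 219 regions at 177 genes, out of 451, 1641 and 13194 regions in all.

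The 3 replicates formed 1 group, spinal cord cells of male C57BL/6J mice aged 8 to 10 weeks, with no treatment, altered allele or comparison group named in the labels. The series title places Runx1, a transcription factor best known from blood and myeloid cells, in microglia and in the response to opioids. Each immunoprecipitation used about 10 µg of chromatin pooled from 10 cords, fixed in pools of 5, and 9 µg of a rabbit polyclonal antibody. The labels do not say whether replicates shared animals, so the spread between them may be partly technical. Chromatin came from whole cord with no sort for microglia, and the defining markers of several cell types were checked. The microglial marker genes P2ry12, Tmem119, Cx3cr1, Csf1r and Aif1 had no region in any replicate. Of 6 oligodendrocyte markers, 0, 6 and 6 had regions in replicates 1, 2 and 3, and of 6 neuron markers 1, 2 and 6 did. Of all coding genes 1.51%, 5.16% and 31.4% had a region in replicates 1, 2 and 3, so most genes had none in any list. The deposited regions do not tell cell types apart, and the part of cell mixture in the results was not tested.

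Most numbered Zfp proteins are built of tandem C2H2 zinc fingers, in which a pair of cysteines and a pair of histidines hold a zinc ion and each finger contacts a few bases of DNA. Many also carry a KRAB domain, which recruits the corepressor Trim28 and, through it, the histone methyltransferase Setdb1 and heterochromatin proteins. KRAB zinc finger genes multiplied by tandem duplication, lie in clusters of close relatives and silence retroelements or keep imprints. A few members are exceptions: Zfp36, Zfp36l1 and Zfp36l2 hold CCCH fingers and bind AU-rich elements of messenger RNA.

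Promoter sequence is shown first because most regions at these genes lay at a start site. RefSeq promoter windows (GRCm38.p6, 250 bases before to 50 after a start) were available for 331 of the 397 genes, with 401 windows in all. The first 4 sequences below had the highest replicate 3 folds among windows overlapped by regions of at least 2 replicates. They are Zfp207 (chr11:80383029-80383328, plus strand), Zfp788 (chr7:41633281-41633580, plus strand), Zfp292 (chr4:34882899-34883198, minus strand) and Zfp62 (chr11:49203042-49203341, plus strand). The last, Zfp58 (chr13:67500473-67500772, minus strand), had the fewest CpG dinucleotides among windows without a region in the largest cluster of Zfp genes. Each reads 5′ to 3′ on the strand of its gene, and capitals mark CpG dinucleotides and, in Zfp62, a core of the RUNX binding motif read on the other strand.
Zfp207: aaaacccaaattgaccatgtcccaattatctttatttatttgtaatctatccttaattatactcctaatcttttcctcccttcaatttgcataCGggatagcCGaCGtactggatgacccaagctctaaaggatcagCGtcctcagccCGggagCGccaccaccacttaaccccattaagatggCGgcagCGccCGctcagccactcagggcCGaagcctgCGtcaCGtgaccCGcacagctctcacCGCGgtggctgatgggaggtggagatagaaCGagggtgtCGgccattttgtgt
Zfp788: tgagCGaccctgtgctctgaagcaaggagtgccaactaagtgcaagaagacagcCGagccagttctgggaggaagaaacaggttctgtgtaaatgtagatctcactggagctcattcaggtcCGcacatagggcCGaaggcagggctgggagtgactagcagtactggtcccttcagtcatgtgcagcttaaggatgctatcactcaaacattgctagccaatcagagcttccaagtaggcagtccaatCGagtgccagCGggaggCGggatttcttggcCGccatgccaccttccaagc
Zfp292: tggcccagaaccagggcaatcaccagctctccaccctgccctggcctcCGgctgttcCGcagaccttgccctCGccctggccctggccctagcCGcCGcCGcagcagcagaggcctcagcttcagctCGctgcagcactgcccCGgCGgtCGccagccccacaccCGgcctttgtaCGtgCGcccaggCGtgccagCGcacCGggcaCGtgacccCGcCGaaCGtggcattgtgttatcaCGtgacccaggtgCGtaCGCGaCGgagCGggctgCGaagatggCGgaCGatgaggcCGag
Zfp62: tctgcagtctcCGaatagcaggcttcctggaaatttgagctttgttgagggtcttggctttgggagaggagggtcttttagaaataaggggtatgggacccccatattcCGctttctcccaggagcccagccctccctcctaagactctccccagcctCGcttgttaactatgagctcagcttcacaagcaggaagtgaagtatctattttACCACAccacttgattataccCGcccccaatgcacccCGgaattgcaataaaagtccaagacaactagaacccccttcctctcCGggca
Zfp58: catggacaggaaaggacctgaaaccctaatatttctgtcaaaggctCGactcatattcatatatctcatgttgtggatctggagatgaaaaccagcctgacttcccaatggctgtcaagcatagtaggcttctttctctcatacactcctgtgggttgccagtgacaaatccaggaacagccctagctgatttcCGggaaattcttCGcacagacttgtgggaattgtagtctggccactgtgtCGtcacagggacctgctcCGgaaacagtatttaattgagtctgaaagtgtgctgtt

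The overlapped windows shown differed in CpG content. Zfp292 had 30 CpG dinucleotides and a GC content of 70.3%, Zfp207 had 17, Zfp788 had 8 and Zfp62 had 6. Zfp58, with no overlapping region, had 5. The RUNX core (TGTGGT, or ACCACA on the other strand) was found once in Zfp62 and in none of the other 4. The YY1 core AAGATGGC was found in Zfp207 and Zfp292.

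The share of numbered Zfp genes with an assigned region was set beside that of all coding genes in each replicate. In replicate 3 a region was assigned to 177 of 397, or 44.6% (95% Wilson interval 39.8% to 49.5%), against 31.4% of all 21887 coding genes. In replicate 2 the share was 5.54% (3.69% to 8.25%) against 5.16%, and in replicate 1 it was 1.26% (0.539% to 2.91%) against 1.51%. The share among numbered Zfp genes was thus above the background in 1 of 3 replicates and near it in the other two. The intervals cover counting error over genes only, and no test was made across genes, which are not replicates.

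The higher share in replicate 3 held at a stricter q and not at a stricter fold. Fold is the authors' ratio at the strongest summit of a region, taken here as pileup plus 1 over background plus 1. The source of that background is not given. At a fold of at least 5, 33 members (8.31%, 5.98% to 11.4%) had a region in replicate 3 against 8.47% of coding genes. At a q of at most 1e-05, 122 members (30.7%, 26.4% to 35.4%) did, against 22.0%. Counting only regions within 1 kb of a start by the authors' annotation gave 167 members (42.1%) against 28.3%. Leaving the chemosensory receptor genes, which are many and rarely had regions, out of the background raised it to 33.7%. Regions within 1 kb of a RefSeq start gave 152 of 331 members (45.9%) against 31.7%, and regions within the gene body or 1 kb around it gave 198 of 397 (49.9%) against 36.5%. The median gene length was 18012 bp for members and 17169 bp for coding genes.

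**Figure D1:**
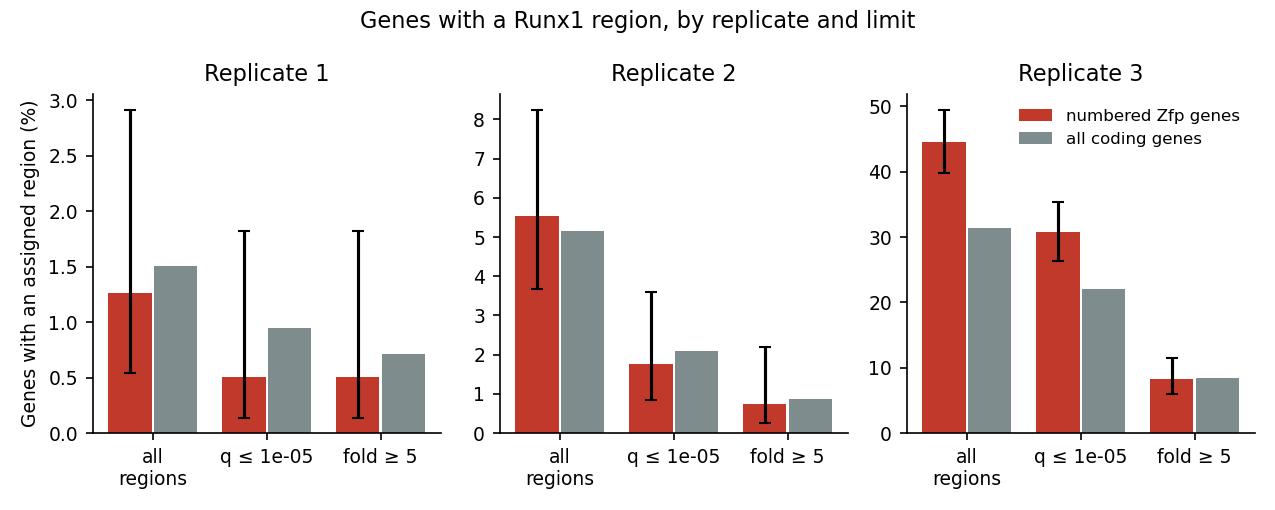
Share of genes with an assigned region (percent, linear axis from 0, scaled separately for each replicate) under 3 limits. Red bars are numbered Zfp genes with 95% Wilson intervals over genes, and grey bars are all coding genes. Red stands above grey in replicate 3 for all regions (44.6% and 31.4%) and at the q limit (30.7% and 22.0%), and the bars are near level at a fold of at least 5 (8.31% and 8.47%).

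Folds and widths of the members' regions were close to those of other coding genes. The median fold was 4.86 for members and 4.86 for all regions of coding genes in replicate 1, 3.84 and 4.00 in replicate 2, and 3.73 and 3.81 in replicate 3. Over the 3 replicates the members' median fold was 4.14 ± 0.627 (SD, n = 3). In replicate 3 the members' folds ran from 2.42 to 12.2. Median widths were 310, 391 and 485 bp for members and 329, 424 and 481 bp for coding genes in replicates 1, 2 and 3. The strongest summits of members stood on 17 to 25 fragments in replicate 1, 14 to 29 in replicate 2 and 12 to 74 in replicate 3. These pileups were solved from the deposited fold and p, and the low ones leave wide counting error.

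A region in at least 2 replicates was found at 23 members (5.79%, 3.89% to 8.54%), against 5.43% of coding genes. Of the 25 member regions of replicate 2, 23 (92.0%) shared at least 1 bp with replicate 3, against 92.1% of that whole list. Of the 5 of replicate 1, 4 (80%) overlapped replicate 3, against 94.7% of that whole list, and 1 (20%) overlapped replicate 2, against 55.2%. Only 1 of the 25 of replicate 2 (4%) overlapped replicate 1, against 14.8% of all regions. In the other direction 20 of the 219 replicate 3 regions (9.13%) overlapped replicate 2, against 10.4% of all regions. For overlap with replicate 1 the shares were 2.28% and 3.11%. The 20 that overlapped replicate 2 were stronger and wider, with a median fold of 5.73 and width of 826.5 bp. The other 199 had 3.64 and 465 bp. How often member regions of replicate 2 were found again in replicate 3 was near the rate of the whole list.

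Zfp395 was the only member with overlapping regions assigned to it in all 3 replicates, 0.252% of members against 0.768% of coding genes. Zfp395 encodes a C2H2 protein first described as binding the huntingtin gene promoter. Its region was distal intergenic, at chr14:65343597-65343877 (GRCm38) in replicate 1, upstream of the gene start at 65358676. Replicates 1, 2 and 3 gave it folds of 5.35, 4.09 and 8.17, and in replicate 3 the region was 1203 bp wide on 65 fragments. All 3 regions overlapped, and the width was 281 bp in replicate 1 and 858 bp in replicate 2. A requirement that overlaps cover 50% of both regions left no member shared by all 3.

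In all, 3 genes were shared by replicates 1 and 3 only. Zfp24, needed for oligodendrocytes to myelinate, had folds of 3.64 and 4.84 at its start on chromosome 18. Zfp248 had 4.08 and 3.04. Zfp91, a ubiquitin ligase of noncanonical NF-kB signalling, had 5.38 in replicate 1 within the class 1 to 2 kb from the start, overlapped in replicate 3 by a region of fold 3.54. A second replicate 3 region of Zfp91, with a fold of 4.83 and a width of 1671 bp, lay at the start itself. Zfp169, at 4.86, was found in replicate 1 only.

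Another 19 genes were shared by replicates 2 and 3 only. Each fold belongs to its own replicate's list, so a difference between replicates is not read as a change. Zfp503 (Nolz1), a corepressor of striatal and motor neuron development, reached 3.94 in replicate 2 and 12.2 in replicate 3, the highest fold of any member. Its replicate 3 region, chr14:21987576-21989080, was 1505 bp wide on 65 fragments. Zfp608 had 5.17 and 9.70, and its replicate 3 region of 4065 bp was the widest of any member. That wide region also overlapped 1 region of replicate 1 and further regions of replicate 2 that the authors assigned to a neighbouring non-coding gene.

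Several better-described genes were among those shared. Zfp143, which activates promoters of small nuclear RNA and coding genes, had 2 regions of 6.25 and 4.46 in replicate 2 and a single region of 5.88 and 2192 bp in replicate 3. Zfp384 had 3.84 and 4.80, and Zfp219 had 4.18 and 5.30. Zfp207 (BuGZ), which helps chromosomes align on the spindle, had 3.58 and 7.48. Its promoter is the first sequence above. Zfp292, a very large protein with many fingers, had 3.26 and 6.32.

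The rest of the shared genes were mostly C2H2 genes without a well-described role. Among them Zfp963 had 4.80 in replicate 2 and 7.84 in replicate 3, Zfp788 had 5.00 and 7.09, Zfp62 had 3.70 and 6.12, and Zfp846 had 3.87 and 5.71. Zfp119a had 3.65 and 4.32, Zfp715 4.10 and 4.33, Zfp41 3.03 and 4.36, Zfp84 3.63 and 3.95, Zfp784 3.20 and 3.83, and Zfp239, in a distal region, 3.48 and 4.03. The fold was lower in replicate 3 than in replicate 2 at Zfp143 (5.88 against 6.25), Zfp455 (4.05 against 4.29) and Zfp672 (2.97 against 3.74). The regions of Zfp672 did not overlap each other, so that gene was shared by assignment only. Zfp114 (4.38) and Zfp553 (3.26) had an assigned region in replicate 2 only, and the Zfp553 region overlapped a replicate 3 region assigned to another gene.

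**Figure D2:**
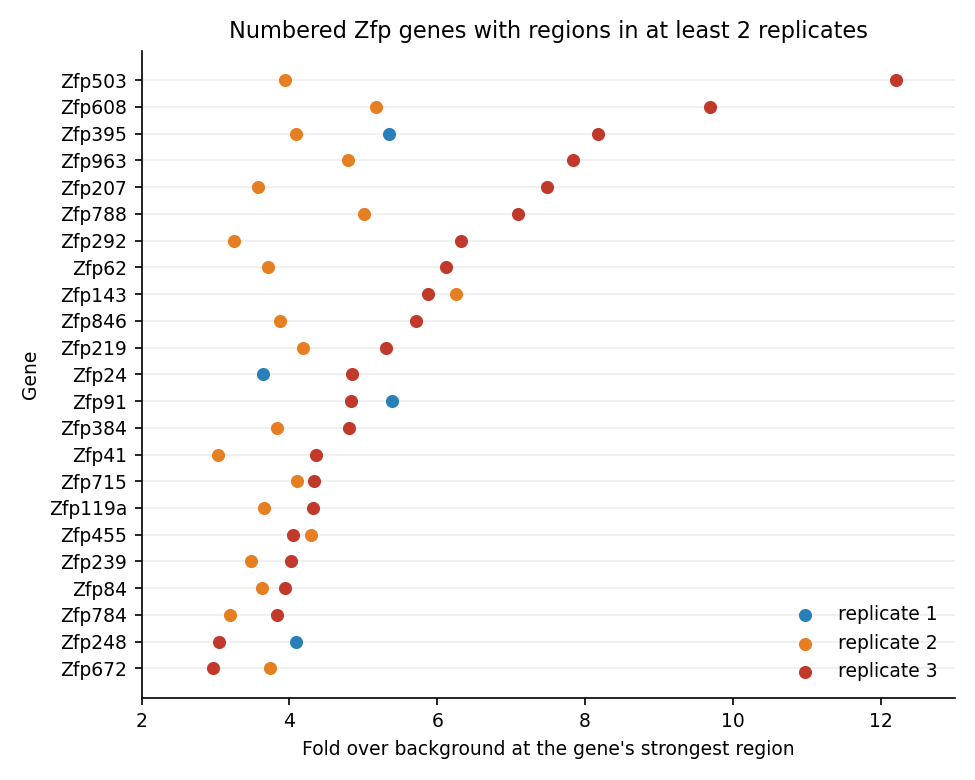
Fold over background (linear axis, authors' values) at the strongest region of each of the 23 genes with regions in at least 2 replicates, with 1 point per replicate that had a region. Replicate 3 runs from 2.97 at Zfp672 to 12.2 at Zfp503, while replicate 2 stays between 3.03 and 6.25, and Zfp395 is the single gene with 3 points.

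The 10 members with the highest folds in replicate 3 included several outside the shared set. After Zfp503 (12.2) came Zfp276 at 9.75, just above Zfp608 at 9.70. Zfp638, a nuclear protein of splicing and of retroviral DNA silencing, followed at 9.00, in a distal intergenic region. Zfp708, a KRAB protein that binds a retroelement family, had 8.74 in its promoter on chromosome 13. Zfp507 had 8.32, on 74 fragments, the most of any member. Zfp395 (8.17), Zfp532 (8.08), Zfp963 (7.84) and Zfp260 (7.53) completed the group. Of the 10, Zfp276, Zfp638, Zfp708, Zfp507, Zfp532 and Zfp260 had no assigned region in replicates 1 and 2.

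By location, most member regions lay at start sites. In replicate 3 the authors' promoter class within 1 kb held 182 of 219 regions, or 83.1% (77.6% to 87.5%), against 71.3% of all coding regions. In replicate 2 it held 20 of 25 (80%) against 76.6%, and in replicate 1 it held 3 of 5 (60%) against 89.7%. The share over the 3 replicates was 74.4% ± 12.5 (SD, n = 3). In replicate 3 introns held 13 member regions (5.94%) against 12.8% of coding regions, and distal intergenic sequence held 8 (3.65%) against 4.67%. A further 7 lay 1 to 2 kb and 4 lay 2 to 3 kb from a start, and exons held 2, at Zfp706 and Zfp57. The 3 regions in a 3′ UTR all belonged to Zfp503.

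Within the promoter class the summits stayed close to the start. In replicate 3, 149 member regions of that class could be placed against their own RefSeq start. The median summit lay 62 bp downstream, with quartiles of -155 and 148 bp. Of these summits 70.5% were within 250 bp of the start, against 58.5% for coding regions. In replicate 2 the shares were 82.4% of 17 regions and 56.3%. A summit within 1 kb of the start or the end of another coding gene was found for 17 of 219 member regions (7.76%) in replicate 3. The share was 11.6% of coding regions. Starts and ends were not told apart, so some of these regions may lie at the other gene's promoter.

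**Figure D3:**
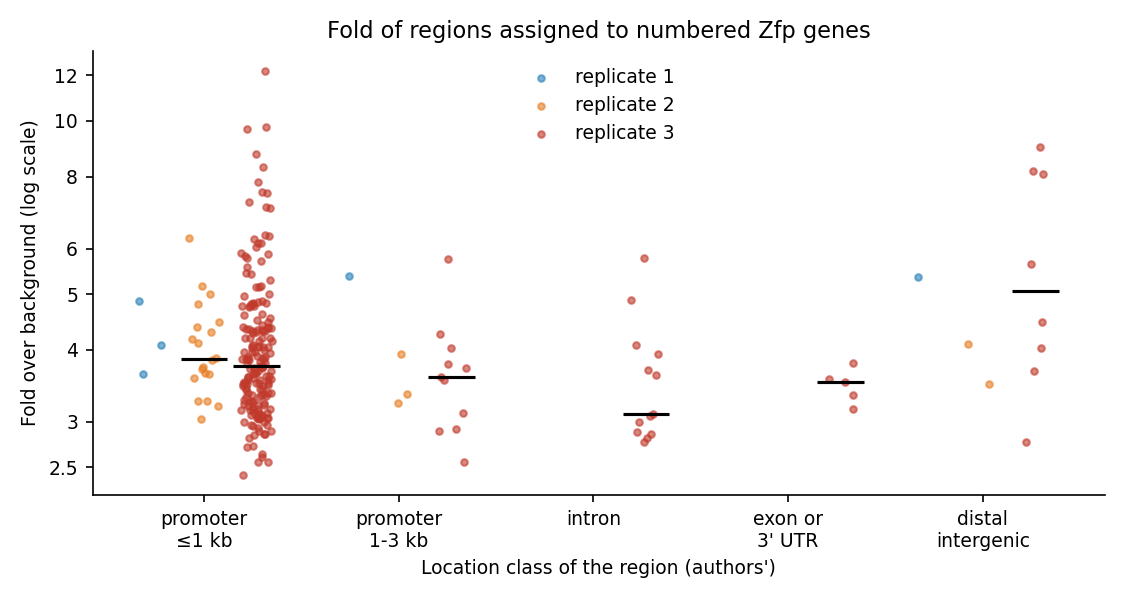
Fold over background (log axis) of every region assigned to a numbered Zfp gene, by the authors' location class, with 1 point per region, colours for replicates and a bar at the median where shown. In replicate 3 the promoter class holds most points, with folds from 2.42 to 12.2, and 3 distal intergenic regions (Zfp638, Zfp395 and Zfp532) stand above 8.

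Distal and intronic regions were few but included strong ones. Beside Zfp638 (9.00), Zfp395 (8.17) and Zfp532 (8.08), the distal class held Zfp869 at 5.64 and Zfp474 at 4.48. By RefSeq the Zfp869 region lay at the gene's start, with its summit 180 bp from it and its promoter window overlapped. The strongest intronic region was that of Zfp462 at 5.78. In replicate 3 the median fold was 3.62 outside the promoter class and 3.75 within it, and for coding regions 3.73 and 3.85. Replicate 2 had 3.48 (5 regions) and 3.85 (20), and replicate 1 went the other way with 5.37 (2 regions) and 4.08 (3).

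Most members had a single region. In replicate 3, 151 of 177 (85.3%) had exactly 1, against 74.4% of the 6868 coding genes with a region. At least 3 regions were assigned to 8 of the 177 members, against 734 of the 6868 coding genes, so such genes were rarer among members. Zfp536, a repressor of neuronal differentiation, had 7, of which 4 were intronic and 3 at the start, and the widest was 2853 bp with a fold of 5.42. Zfp462, a nuclear protein of neurodevelopment, had 5, with 3 in introns. Zfp503 and Zfp532 had 4 each, and Zfp706, Zfp638, Zfp365 and Zfp827 had 3 each. All 8 lay outside the clusters described below.

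The members named for known roles were grouped by function, in lists drawn up with earlier results of these data known. Of 12 factors of neural and glial lineages, 1, 2 and 10 (8.33%, 16.7% and 83.3%) had a region in replicates 1, 2 and 3. The shares were 1.51%, 5.16% and 31.4% for coding genes and 1.26%, 5.54% and 44.6% for all members. Beside Zfp24, Zfp503, Zfp292, Zfp536 and Zfp462, the 10 included Zfp488, an oligodendrocyte factor that acts with Olig2, at 4.14 with 2 regions. They also included Zfp365, which binds Disc1, at 4.19, and Zfp804a, a schizophrenia-associated gene, at 3.86. Zfp703 reached 3.47 in a region of 1346 bp, and Zfp521, of neural progenitors, 2.89, near the low end of the list. Zfp423 and Zfp804b had no region in any replicate. Apart from Zfp24, Zfp503 and Zfp292, these calls rest on replicate 3 alone.

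Of the 4 CCCH genes, 3 (75%) had regions in replicate 3, against 44.6% of all members and 31.4% of coding genes, and none in replicates 1 and 2, where coding genes had 1.51% and 5.16%. Zfp36 (tristetraprolin) had a fold of 3.88 at its start and a second region 2 to 3 kb away. Zfp36l1 had 3.79 in a region of 960 bp, and Zfp36l2 had 4.08 and 4.07 in 2 regions at its start. Zfp36l3 had none. The 3 folds were near the middle of the replicate 3 list, at percentiles 53.1, 49.1 and 59.3.

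Of 7 KRAB factors known for imprints or retroelements, 3 (42.9%) had a region in replicate 3, near the 44.6% of all members and against 31.4% of coding genes, and none did in replicates 1 and 2. Zfp708 (8.74) was the strong one. Zfp568, which represses a placental Igf2 promoter, had 3.37, and Zfp57, which protects imprints, had 3.15 in an exon. Zfp445, Zfp809, Zfp819 and Zfp932 had no region. Of 5 factors associated with pluripotency (40% in replicate 3), Zfp281 (3.51) and Zfp322a (4.97) had a region, and Zfp42 (Rex1), Zfp296 and Zfp217 did not.

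A further list of 8 transcription factors was loose and not defined by a shared target. Of these, 0, 3 and 6 (0%, 37.5% and 75%) had a region in replicates 1, 2 and 3. The shares were 1.51%, 5.16% and 31.4% for coding genes and 1.26%, 5.54% and 44.6% for all members. Beside Zfp143, Zfp384 and Zfp219 the 6 factors were Zfp148 at 3.60, Zfp281 at 3.51, and Zfp410. Zfp410, an activator of Chd4, had 4.26 in a region 2 to 3 kb from a start. Zfp335 and Zfp217 had none. Of 13 genes linked to RNA, ribosomes or mitosis, 0, 1 and 5 (0%, 7.69% and 38.5%) had a region, near those coding shares. Beside Zfp207 and Zfp638 they were Zfp326 (3.36), Zfp385b (2.92) and Zfp622, a factor of large ribosomal subunit maturation (3.59).

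Genes of the KRAB corepressor pathway, which are not numbered Zfp genes, were read beside them. Of 19 such genes 1, 3 and 11 (5.26%, 15.8% and 57.9%) had a region in replicates 1, 2 and 3, against 1.51%, 5.16% and 31.4% of coding genes. Trim28, the KRAB-binding corepressor, had 4.59 in replicate 3. Atf7ip, a partner of Setdb1, had 7.15, 5.59 and 8.77 in replicates 1, 2 and 3. Cbx5 (HP1 alpha) had 5.06 and 5.29 in replicates 2 and 3, and Hdac1 had 4.19 and 3.41. Tasor (5.17) and Mphosph8 (3.54), both of the HUSH silencing complex, had regions in replicate 3. Setdb1, Cbx1, Cbx3, Pphln1, Morc2a, Uhrf1, Dnmt3a and Dnmt3b had none.

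By chromosome, the members were unevenly spread and so were their regions. Chromosome 7 holds 93 of the 397, and 46 of them (49.5%) had a region in replicate 3, against 26% of its coding genes. Chromosome 17 had 17 of 46 members (37.0%) against 30.8%, and chromosome 13 had 16 of 37 (43.2%) against 31.4%. The share was lower among members than among coding genes on chromosome 2 (5 of 27, 18.5% against 30.1%) and chromosome 4 (7 of 27, 25.9% against 32.1%). On the X chromosome 1 of 9 members (11.1%) had a region, against 18.2% of its coding genes. On chromosome 16, 5 of 5 did against 33.9%, and on chromosome 18, 10 of 11 (90.9%) against 38.4%. Replicate 2 had 7 of its 22 genes on chromosome 7.

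Members in clusters along a chromosome were set beside members outside them. A cluster was defined as at least 3 numbered Zfp genes with neighbouring starts within 250 kb, which gave 30 clusters with 198 genes, of 3 to 23 genes each. The rule counts numbered Zfp genes only, so close copies set farther apart count as outside. Zfp966 and Zfp967 on chromosome 2, whose promoter windows are identical, are an example. The split is therefore not one of duplicated genes against other genes. In replicate 3 a region was assigned to 79 of 198 clustered genes (39.9%, 33.3% to 46.9%) and to 98 of 199 others (49.2%, 42.4% to 56.1%). The intervals overlap, and the background was 31.4% of coding genes. In replicate 2 the counts were 8 and 14, and in replicate 1 they were 1 and 4. Clustered genes had a median fold of 3.75 and others 3.88, each gene at its strongest region, and median widths of 470 and 563 bp. Several regions were assigned to 3 of the 79 clustered genes and to 23 of the 98 others. Among the 6868 coding genes with a region, 5110 (74.4%) had exactly 1.

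Counts differed between clusters, but each rests on few genes and the intervals are wide. The share was 31.4% among all coding genes in replicate 3. The largest, on chromosome 13 from Zfp712 to Zfp273 (67038594 to 67827000), had 11 of 23 genes with a region (47.8%, 29.2% to 67.0%). Its folds ran up to 8.74 at Zfp708. Its other genes with a region were Zfp729b (5.15), Zfp729a and Zfp874b (4.77 each), Zfp874a (4.38), Zfp455 (4.05), Zfp759 (3.85), Zfp738 (3.80), Zfp65 (3.49), Zfp595 (3.25) and Zfp273 (2.71). All 11 regions were in the promoter class, and 2 of the 21 promoter windows of this cluster were CpG-rich. The cluster on chromosome 7 from Zfp84 to Zfp146 had 10 of 15 (66.7%, 41.7% to 84.8%), Zfp260 (7.53) among them.

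Shares in other clusters ran lower or higher. On chromosome 17 the cluster from Zfp677 to Zfp946 had 5 of 18 (27.8%, 12.5% to 50.9%). That from Zfp871 to Zfp414 had 2 of 13 (15.4%, 4.33% to 42.2%). On chromosome 7 the cluster from Zfp180 to Zfp575 had 5 of 12 (41.7%, 19.3% to 68.0%). On chromosome 4 that from Zfp978 to Zfp933 had 1 of 9 (11.1%, 1.99% to 43.5%). On chromosome 9 that from Zfp653 to Zfp810 had 0 of 5 (0% to 43.4%). In all, 6 clusters had no gene with an assigned region in replicate 3. Genes are counted by the authors' assignment, so a gene counted as without a region can still have one at its promoter. Promoter windows of Zfp982, in the chromosome 4 cluster above, and of Zfp566, in the chromosome 7 cluster from Zfp84, overlapped a replicate 3 region. In 3 clusters every gene had an assigned region, but each held only 3 genes (interval 43.85% to 100%). They were Zfp263 to Zfp597 on chromosome 16, Zfp119a to Zfp119b on chromosome 17 and Zfp397 to Zfp24 on chromosome 18.

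**Figure D4:**
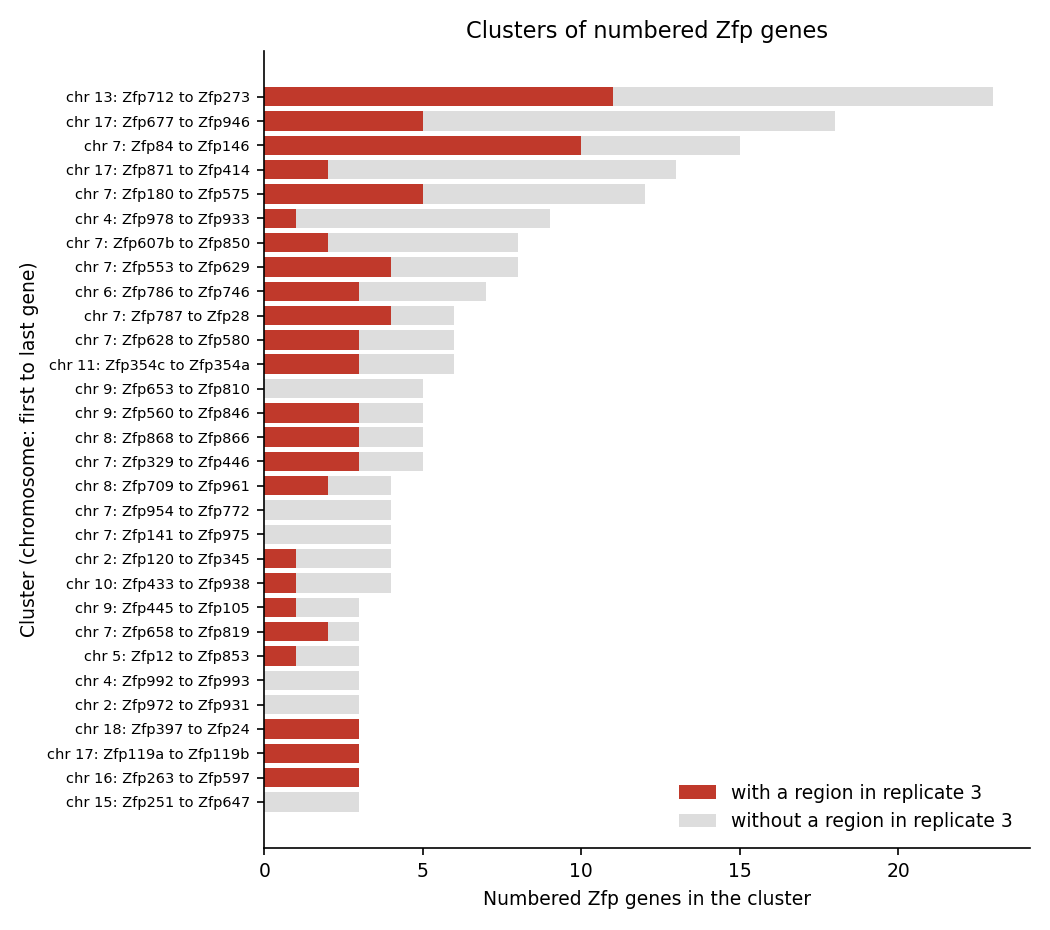
Numbered Zfp genes in each of the 30 clusters (linear axis, number of genes), with the genes that had a region in replicate 3 in red and the rest in grey. The chromosome 13 cluster of 23 genes has 11 in red and the chromosome 7 cluster of 15 has 10, while the chromosome 17 cluster of 13 has 2 and 6 clusters have none.

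Reads from near-identical copies can be dropped or split by a mapper, and no source used here gives the setting. Each member window was compared with every other member window. Of 35 windows with a partner of at least 80% identity, 3 (8.57%, 2.96% to 22.4%) overlapped a region of replicate 3, at Zfp747, Zfp119a and Zfp959. Of the 366 others 147 did (40.2%, 35.3% to 45.3%). Many of the 35 held few CpG dinucleotides, for example 5 each at Zfp966, Zfp967, Zfp968 and Zfp973. Among all member windows 2.56% of those with 0 to 4 CpG overlapped a region, and 28.7% of those with 5 to 9. The parts of read mapping and of CpG content in the low share at near-identical windows were not tested. Zfp119a and Zfp959 have windows 92.3% identical to each other and both were overlapped, so either call could hold reads of the other.

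Overlapped windows held more CpG dinucleotides than the others, among members and among coding genes at large. A window was called CpG-rich at an observed to expected CpG ratio of at least 0.6 and a GC content of at least 50%. Of the members' 401 windows 150 (37.4%, 32.8% to 42.2%) overlapped a region of replicate 3, against 26.5% of 21263 coding windows. The overlapped member windows had a median of 17 CpG dinucleotides and 62.7% were CpG-rich. The 251 others had a median of 10 and 38.2% were. For coding genes the medians were 23 and 7, so the overlapped Zfp windows had a lower median than overlapped windows in general.

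The higher share among members lay in windows that were not CpG-rich. Of CpG-rich windows, 94 of 190 member windows (49.5%, 42.4% to 56.5%) overlapped a region, against 47.3% of coding windows. Of the other windows, 56 of 211 (26.5%, 21.0% to 32.9%) did, against 9.42%. Within that class the member windows still held more CpG, with a median of 8 against 4. At a fold of at least 5, an added check chosen after seeing the data, the shares were 11.1% (21 of 190) against 12.2% for CpG-rich windows and 6.16% (13 of 211, 3.64% to 10.3%) against 2.75% for the others.

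Split by number of CpG dinucleotides, the difference was widest at 5 to 9. There 29 of 101 member windows (28.7%) overlapped a region, against 9.68% of coding windows. With 0 to 4 the shares were 2.56% (1 of 39) and 1.82%, with 10 to 14 they were 38.6% and 29.2%, and with 15 to 19 they were 48.6% and 42.5%. With at least 20 they were 48.7% and 47.6%. Zfp788 (8 CpG) and Zfp62 (6 CpG), printed above, are windows of the 5 to 9 bin with regions in replicates 2 and 3, and Zfp58 (5 CpG) is one without. Zfp62 has a second RefSeq window nearby, with 32 CpG, which regions of both replicates also overlapped.

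**Figure D5:**
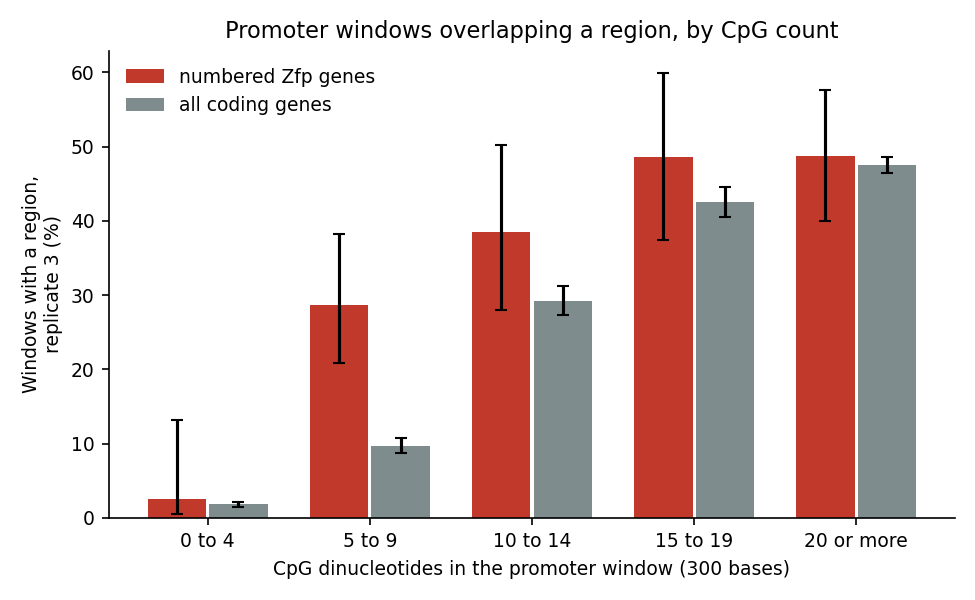
Share of promoter windows (percent, linear axis from 0) that overlapped a region of replicate 3, by number of CpG dinucleotides in the window. Red bars are numbered Zfp genes, grey bars all coding genes, and error bars are 95% Wilson intervals over windows. The 401 member windows come from 331 genes and some overlap, so they are not independent and the intervals are too narrow. The shares are 28.7% and 9.68% at 5 to 9 CpG and 48.7% and 47.6% at 20 or more.

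Clustered genes had fewer CpG-rich windows, 71 of 191 (37.2%), than genes outside clusters, 119 of 210 (56.7%). Counted by window, the shares overlapping a region were 38.2% in clusters and 36.7% outside. Among CpG-rich windows they were 47.9% and 50.4%. Among the others they were 32.5% (24.8% to 41.3%) in clusters and 18.7% (12% to 27.9%) outside. The lower share of clustered genes was seen by assigned gene and not by promoter window. These counts do not cover the same genes. Only 331 of the 397 members have a window, those on chromosome 18 have none, and a gene with several starts counts more than once. The difference between the counts is therefore not read as a result about clusters.

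Short motifs were counted on both strands of the windows, as letters only, in 4 sets: the 150 member windows overlapped in replicate 3, the 251 other member windows, the 5643 overlapped coding windows and all coding windows. The RUNX core TGTGGT was found in 16.7%, 17.1%, 10.9% and 15% of these sets, and TGCGGT in 12%, 6.77%, 11.5% and 7.44%. Either of them was found in 26%, 23.1%, 21.3% and 21.6%. TGCGGT holds a CpG, and its share was higher in the overlapped windows of members and of coding genes alike. The ETS core CCGGAAG was found in 23.3%, 19.9%, 21.8% and 11.6%, and the YY1 core AAGATGGC in 6.67%, 3.59%, 6.06% and 3.05%. Both shares in overlapped member windows were near those in overlapped coding windows. The cyclic AMP response element TGACGTCA was found in 7.33%, 1.59%, 3.99% and 2.23%. The GC box GGGCGG was found in 49.3%, 40.6%, 68.9% and 46.2%, and the E-box CACGTG in 6.67%, 5.58%, 13% and 7.84%, both with lower shares in overlapped windows of members than in those of coding genes. CCAAT was found in 41.3%, 51.0%, 41.3% and 38.2%. The NRF1 part GCATGCGC was found in 4.67%, 5.18%, 7.12% and 3.52%, and the ZNF143 part CCCAGAAT in 4.00%, 3.98%, 1.68% and 1.80%. Letters of different motifs can overlap in a window, and a match describes sequence and not binding.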

How the data were processed

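Runx1 ChIP-seq of 3 spinal cord replicates was read from the authors' peak lists and annotated tables. Per the submitters' processing notes, the tools included MACS2 2.1.2, Bowtie2 and Trimmomatic 0.38, with FastQC, SAMtools 1.9 and Picard 2.18.26, on build GRCm38. The sources used here do not give parameters, the control library or read totals, so depth is unknown. Per the deposited files, regions were called separately in each replicate, and each summit has the authors' −log10 q and −log10 p, a score and a ratio, the fold. Each deposited list ends at a −log10 q of about 2 (2.01, 2.00 and 2.00 in replicates 1, 2 and 3, rounded).

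Each region took the fold of its strongest summit, and starts were counted from 1. Pileups were solved from the deposited fold and −log10 p under a Poisson model, within 0.001 for 100% of summits; 100% of 500 simulated pileups were recovered. Genes and locations are the authors' assignments. Coding symbols matched RefSeq (GRCm38.p6) in 98.8%, 99.7% and 99.1% of cases, and all member symbols matched. Replicate 3 holds antibody text in its tissue field, and its group came from its title.

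Members, role lists and markers were chosen with earlier results of these data known. A marker gene is not reported here. Named genes were members with regions in at least 2 replicates, the 10 highest folds and 5 widest regions, members with 3 or more regions, role list members with a region, up to 6 with the strongest region outside the promoter class, and the clusters with the highest and lowest shares; others were chosen after their values were seen. No tests were made over genes or regions. Wilson intervals (95%) cover counting error only, and those over windows count several windows of a gene as separate. Alternatives were stricter q and fold limits, other overlap rules, RefSeq-based assignment, other cluster distances and leaving out each replicate. Scripts ran in Python 3.11.15 with pandas 2.3.3, numpy 2.4.6, statsmodels 0.14.6, scipy 1.17.1 and matplotlib 3.10.9.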

Additional observations from a re-analysis of the deposited data

How the results depend on the processing

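Counts of numbered Zfp genes with a region depended on the limits, the assignment and the replicates used. At a q of at most 1e-05 the count went from 5 to 2 in replicate 1 (0.504%, against 0.946% of coding genes). In replicate 2 it went from 22 to 7 (1.76% against 2.08%). For at least 2 replicates it went from 23 to 8, while replicate 3 kept 122 of 177 (30.7% against 22.0%). At a fold of at least 5 the counts were 2, 3 and 33 in replicates 1, 2 and 3, 4 for at least 2 replicates and 0 for all 3. The shares in replicates 1, 2 and 3 were 0.504%, 0.756% and 8.31%, against 0.713%, 0.882% and 8.47% of coding genes. Overlap of at least 50% of both regions also gave 0 for all 3. Regions within 1 kb of a RefSeq start gave 1 gene in replicate 1 (0.302%, against 1.57% of coding genes). With 1 replicate left out, 1 to 20 genes had regions in at least 2 replicates: 1 without replicate 3, 4 without replicate 2 and 20 without replicate 1. The promoter share of 74.4%, a mean over replicates, was 54.5% (SD 47.6) at the q limit and 61.0% (SD 53.5) at the fold limit. Replicate 1 kept only the regions of Zfp395 and Zfp91 at either limit, both outside the promoter class. The lower means therefore largely reflect that replicate and do not show fewer promoter regions among stricter calls. With a replicate left out the mean was 70.0% to 81.6%. The median fold of 4.14 was 5.55 at the fold limit, since that limit removes lower folds, and 3.78 to 4.35 with a replicate left out. Clusters defined at 100 kb and 500 kb had 69 of 169 and 93 of 239 genes with a region in replicate 3. As checks added after seeing the data, member windows that were not CpG-rich overlapped a region in 39 cases at the q limit and 13 at the fold limit, against 56. The shares at these limits were 18.5% and 6.16%, against 6.64% and 2.75% of coding windows. No paired analysis was possible because the replicates form 1 group and no test was made. A planned limit to genes with a C2H2 pattern in their protein was not run. With 5 regions in replicate 1, and low pileups throughout, a missing call does not show a missing region.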

Other observations

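Several Zfp-named entries fell outside the symbol or coding rule and were found in replicate 3 only. The pseudogene Zfp389 had a promoter region with a fold of 8.69, between the coding members Zfp708 (8.74) and Zfp507 (8.32), and the pseudogene Zfp133-ps had 4.66. The antisense RNA Zfp335os had 2.68, while Zfp335 itself had no assigned region. Zfp469, listed by the authors as a long non-coding RNA, had intronic regions of 3.00 and 5.74. Zfpm1 and Zfpm2, the FOG cofactors that bind GATA factors, had promoter regions of 4.32 and 3.35, and Zfpm1 also had an intronic region of 4.01.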
